A study of Mus musculus with 4 samples.

Results

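The inhibitor of DNA binding (Id) genes and the bone morphogenetic protein (BMP) pathway were examined in cultured mouse neural stem cells, through 10 genes taken by name from a table of 55487 genes. The 10 genes were Id1, Id2, Id3, Id4, Bmpr1a, Bmp4, Smad1, Smad6, Smad7 and Nog, and each was matched to 1 Ensembl gene ID. Primary cells from E12.5 mouse neocortex were grown in medium with bFGF and EGF, and RNA was sequenced from 4 groups with 1 library each. The control carried floxed Tut1 (Tut1f/f) and received empty lipid nanoparticles (LNP). Nanoparticles with mRNA for Cre recombinase, which deletes DNA flanked by loxP sites, were given for 3 days to Tut1f/f cells (labelled Tut1 KO), to cells with floxed Trp53 (p53f/f, labelled Trp53 KO here) and to Tut1f/f;p53f/f cells (double KO). No promoter restricted Cre to a cell type, and the number of embryos behind each culture is not given in the sources used here.

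BMP ligands bind a pair of type I and type II receptor kinases, which phosphorylate SMAD1, SMAD5 and SMAD9. These join SMAD4, enter the nucleus and activate target genes, of which the Id genes are among the best known. ID proteins have a helix-loop-helix but no DNA-binding region, and they hold back basic helix-loop-helix (bHLH) factors mainly by pairing with the E proteins that these factors need as partners. In the nervous system, Id genes are known for keeping progenitors undifferentiated, while BMP signals can favour astrocytes over neurons and oligodendrocytes.

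Levels were in TPM (transcripts scaled to their length and to each library's total), so that genes may be compared within a library. A difference is the change in log2(TPM + 1), a scale on which changes of low genes look smaller than they are. Genes entered a comparison if either library reached 10 TPM, and those whose difference was 1 or more in size are termed called. No group had a replicate, so differences could be set against no spread within a group, no test was run, and neighbouring levels cannot be ordered beyond their error.

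The libraries were not fully described by their labels. Tut1 was measured at 12.2 TPM (control), 29.8 TPM (library labelled Tut1 KO), 12.5 TPM (Trp53 KO) and 13.7 TPM (double KO), so directions along the Tut1 label rest on the label. Per the methods, Cre removes 1 exon of Tut1, so a level over the whole gene does not check the deletion. Other measures of the deletion were not analysed here. Trp53 was lower in the Trp53 KO (39.7 TPM) and double KO (41.9 TPM) libraries than in the control (120 TPM). Xist, which silences the inactive X chromosome, reached 188 TPM in the library labelled Tut1 KO and 204 TPM in that of Trp53 KO, with at most 0.01 TPM in the others, and 4 Y-linked genes showed the reverse order. Sex therefore differed within each of the 4 comparisons below, and its part in each cannot be told apart from the genotype. Along each label, the comparison with the control and that of the remaining libraries had opposite sex orders. All 8 neural stem cell markers reached 10 TPM in some library. In the control Nes had 417 TPM and Sox2 370 TPM, while Pax6 had 15.5 TPM and Prom1 10.6 TPM. Markers of endothelial cells, in which Id1 and Id3 are also well known, were near absent. All 6 had less than 1 TPM in every library, their summed level ranged from 0.72 to 1.17 TPM, and Cdh5 was listed at 0 throughout. The 6 fibroblast and mural, 6 microglial and 4 choroid plexus markers also stayed under 1 TPM in every library.

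The order of the Id genes was Id3, Id2, Id1 and Id4 in all 4 libraries, and Id3 exceeded Id4 by 198-fold in the control and by 126-fold to 199-fold in the others. The nearest pair was Id3 and Id2, 1.51-fold apart in the control, which is less than the 1.65-fold range of Id2 over the libraries. To show what lies before these transcripts, the 250 bases upstream of the RefSeq start of Id2, Id3 and Id4 are given 5′ to 3′ on the strand of the gene (build GRCm38.p6). Capitals mark GGCGCC, a GC-rich element known from SMAD-bound enhancers. The windows lie at chr12:25096093-25096342 (minus strand, Id2), chr4:136143572-136143821 (plus strand, Id3) and chr13:48260866-48261115 (plus strand, Id4). In the GENCODE annotation the Id2 and Id3 genes begin further upstream, so that their windows fall within the annotated genes.
Id2: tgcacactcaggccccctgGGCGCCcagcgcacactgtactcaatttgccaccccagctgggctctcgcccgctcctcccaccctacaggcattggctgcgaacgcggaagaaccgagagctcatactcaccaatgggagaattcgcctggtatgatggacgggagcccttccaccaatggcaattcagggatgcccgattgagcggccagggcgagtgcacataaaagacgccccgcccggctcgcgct
Id3: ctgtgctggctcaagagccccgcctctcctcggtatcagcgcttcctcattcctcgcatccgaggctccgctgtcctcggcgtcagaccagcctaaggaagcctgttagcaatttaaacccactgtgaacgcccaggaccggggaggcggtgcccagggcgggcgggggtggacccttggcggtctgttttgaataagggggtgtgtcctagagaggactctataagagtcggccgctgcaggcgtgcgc
Id4: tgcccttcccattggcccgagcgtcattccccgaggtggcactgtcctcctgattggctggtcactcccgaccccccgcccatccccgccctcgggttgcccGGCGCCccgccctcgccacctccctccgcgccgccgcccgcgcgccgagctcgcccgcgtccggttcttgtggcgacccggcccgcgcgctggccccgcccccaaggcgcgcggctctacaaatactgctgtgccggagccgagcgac
The motif GGCGCC, which reads the same on both strands, occurred once before Id2 and once before Id4 and not before Id3, the Id gene with the highest level. Among 32851 windows of the same length upstream of mouse genes, 9.59% held it. The E-box CANNTG, to which E protein dimers bind, occurred once before Id2 and in neither of the other windows, against 66.2% of all windows. No match of one motif overlapped the other. Of the 10 genes, 7 had a window in the table used, and Bmpr1a also held GGCGCC once, whereas Bmp4, Smad1 and Smad6 held none. Id1, Smad7 and Nog had no window in it. A match is a string of letters and was not tested for binding.

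Id3 (ENSMUSG00000007872, chromosome 4, 136143497 to 136145755, plus strand) stood at 175 TPM in control cells, 177 TPM in the library labelled Tut1 KO, 168 TPM after Trp53 deletion and 190 TPM in double KO cells. The highest library exceeded the lowest by 1.13-fold, the narrowest range of the 10 genes. In the control 96.3% of the genes listed above 0 had a lower TPM than Id3.

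Id2 (ENSMUSG00000020644, chromosome 12, 25093799 to 25097140, minus strand) was measured at 116 TPM (control), 70.1 TPM (library labelled Tut1 KO), 99.1 TPM (Trp53 KO) and 102 TPM (double KO). The library labelled Tut1 KO stood below the other 3, which ranged from 99.1 to 116 TPM. Id2 is the Id gene that is also known for binding the retinoblastoma protein. In these bulk samples, fewer cells that express Id2 and less Id2 RNA per cell cannot be told apart. The summed TPM of 6 neuronal markers, 4 of them at 10 TPM or more in some library, was 260, 190, 234 and 239 in the same order and lowest in the library labelled Tut1 KO. Of the 6, 4 were lower there than in the control, namely Map2 (208 and 141 TPM), which made up most of the sum, Snap25 (9.65 and 3.38 TPM), Rbfox3 and Tubb3, and Syp and Dcx were higher. For 6 astrocyte markers the sums were 435, 414, 389 and 480, mostly of Slc1a3 (305, 290, 252 and 347 TPM). Those for 6 markers of the oligodendrocyte lineage were 736, 647, 670 and 695. Most of the latter was Olig2, which like Pdgfra (39.5 and 27.4 TPM) was lower in the library labelled Tut1 KO than in the control, while Cspg4, Sox10 and Mbp were among those that were higher. The 8 neural stem cell markers summed to 12196, 10926, 10343 and 11956, mostly of Fabp7 (9441, 8095, 7902 and 9394 TPM), so the sums follow that gene. Of the 8, 6 were lower in the library labelled Tut1 KO than in the control, and Vim and Hes5 were higher. The part of cell types in the Id2 values was not tested.

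Id1 (ENSMUSG00000042745, chromosome 2, 152736251 to 152737410, plus strand) stood at 21.6 TPM in control cells, 29.9 TPM in the library labelled Tut1 KO, 24.9 TPM after Trp53 deletion and 26.1 TPM in double KO cells. Its extremes were those of Id2 reversed, with the control lowest and the library labelled Tut1 KO highest. Id2 exceeded Id1 by 5.35-fold in the control and by 2.34-fold in the library labelled Tut1 KO.

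Id4 (ENSMUSG00000021379, chromosome 13, 48261228 to 48266026, plus strand), a gene known for quiescence of neural stem cells and for holding back oligodendrocyte formation, was near absent. It was measured at 0.88 TPM (control), 1.03 TPM (library labelled Tut1 KO), 0.84 TPM (Trp53 KO) and 1.503 TPM (double KO). Olig1 and Olig2, bHLH factors of the oligodendrocyte lineage that growth factor cultures of neural stem cells also express, had 1029 and 619 TPM in the control.

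**Figure D1:**
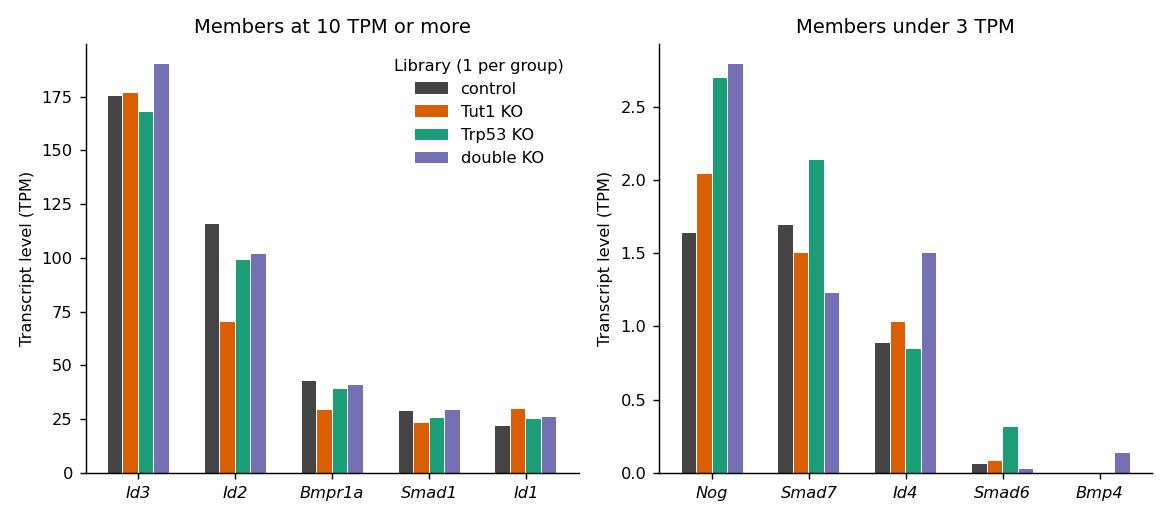
Bars give the TPM of each of the 10 genes in the 4 libraries, 1 library per group, with the y axes starting at 0 and differing between the panels. The left panel holds the 5 genes at 10 TPM or more in every library, and the right panel the 5 genes that stayed under 3 TPM. Id3 stands highest in every library, Id2 is lowest in the library labelled Tut1 KO (70.1 TPM), and Bmp4 is above 0 in the double KO library alone.

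Among the ligands, Bmp4 (ENSMUSG00000021835), a ligand of the dorsal midline and choroid plexus in the embryo, was listed at 0 in 3 libraries and at 0.14 TPM in the double KO. The ligand transcript found was Bmp7, at 87.7 TPM in control cells, 81.5 TPM in the library labelled Tut1 KO, 68.0 TPM after Trp53 deletion and 71.3 TPM in double KO cells. Both libraries with the Trp53 deletion were below both without it, with a difference of -0.36 from the control and of -0.19 from the library labelled Tut1 KO, within the threshold. The other 12 of 13 ligands on the list, Bmp4 included, had less than 1 TPM in every library, and Bmp10, Gdf2 and Gdf7 were listed at 0 throughout.

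The type I receptor Bmpr1a (ENSMUSG00000021796, chromosome 14, 34410734 to 34503341, minus strand) stood at 42.8 TPM in control cells, 29.2 TPM in the library labelled Tut1 KO, 38.9 TPM after Trp53 deletion and 41.0 TPM in double KO cells. It was the highest of 11 receptors and coreceptors in the control, and Acvrl1, known as a receptor of endothelial cells, was the lowest at 0.05 TPM. Among the other receptors, Bmpr2 had 20.4, 13.6, 18.02 and 19.3 TPM and Acvr1 14.9, 8.95, 12.5 and 11.2 TPM in the same order of libraries. As deposited, the library labelled Tut1 KO was the lowest in each of these, as in Acvr2a and Bmpr1b. The coreceptor Rgma was lowest in the control (30.9 TPM against 42.1 TPM in the library labelled Tut1 KO). After the correction for GC content and length given below, Tut1 KO minus control was -0.55 for Acvr1, -0.03 for Acvr2a and 0.11 for Bmpr1b.

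The signal carrier Smad1 (ENSMUSG00000031681, chromosome 8, 79338395 to 79399518, minus strand) was measured at 28.8 TPM (control), 23.4 TPM (library labelled Tut1 KO), 25.7 TPM (Trp53 KO) and 29.5 TPM (double KO). Smad5, which carries the same signal, had 28.7, 39.4, 47.5 and 53.8 TPM in the same order. Smad5 was thus lowest in the control, the only culture without Cre, and shares exons with another annotated gene, which makes its value uncertain. The common partner Smad4 was the highest of the 4 carriers in the control at 35.0 TPM, and Smad9 was the lowest at 0.37 TPM.

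The inhibitory SMADs, which BMP signals induce and which then block the receptors, were low. Smad7 (ENSMUSG00000025880) stood at 1.69 TPM in control cells, 1.499 TPM in the library labelled Tut1 KO, 2.13 TPM after Trp53 deletion and 1.23 TPM in double KO cells. Smad6 (ENSMUSG00000036867) had 0.06, 0.08, 0.31 and 0.03 TPM in the same order. The 11.3-fold range of Smad6 is thus one between levels near 0. Of the 10 intracellular inhibitors, Fkbp1a, which keeps type I receptors inactive, was the highest in the control at 154 TPM, and Smad6 the lowest.

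The secreted antagonist Nog (ENSMUSG00000048616), which binds BMP ligands and keeps them from their receptors, was measured at 1.64 TPM (control), 2.04 TPM (library labelled Tut1 KO), 2.69 TPM (Trp53 KO) and 2.79 TPM (double KO). The antagonists present at more than 10 TPM were Nbl1 (28.3 TPM in the control), Chrdl1 (27.1 TPM) and Twsg1 (21.2 TPM), the last of which can also aid BMP signalling. Chrdl2 and Grem1 were among those listed at 0 in the control. Of the 13 BMP response genes, Id3 was the highest and Msx2 and Atoh8 were listed at 0 in the control, and 5 had less than 1 TPM in every library.

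The Tut1 label with Trp53 intact was addressed by the library labelled Tut1 KO minus the control, in which Cre also differed. None of the 10 genes was called, while 1.48% of 9032 genes were called higher and 2.61% lower. The 5 genes that passed the TPM minimum were Id1, Id2, Id3, Bmpr1a and Smad1. Id2 differed by -0.71 (0.61 times the control), Bmpr1a by -0.54, Smad1 by -0.29, Id3 by 0.01 and Id1 by 0.45. The median of the 5 was -0.29, against -0.09 over all genes compared. A difference at least as far from 0 as that of Id2 was held by 7.74% of all genes, and one as far as that of Bmpr1a by 15.0%.

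The same label without Trp53, double KO minus Trp53 KO, shares no library with the comparison above, and both cultures had received Cre. None of the 10 genes was called, against 1.41% of 8976 genes higher and 1.79% lower. Id2 differed by 0.04, Bmpr1a by 0.07, Smad1 by 0.19, Id3 by 0.18 and Id1 by 0.06, with a median of 0.07 against 0.05 over all genes. The lower Id2 of the first comparison was thus not seen in the other, and for Bmpr1a the values after a correction for GC content and length (given with the transcript composition) were -0.15 and -0.07. Whether the 2 differences differ from each other was not tested, because no group had a replicate.

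The Trp53 label was addressed by Trp53 KO against control and, from the remaining libraries, by double KO minus Tut1 KO. Trp53 KO and control also differed in Cre and in the floxed Tut1 allele, which the p53f/f cells lack by their label. None of the 10 genes was called in either comparison. Of 9055 genes in Trp53 KO minus control, 1.92% were called higher and 1.91% lower. Of 8950 genes in the comparison of double KO with Tut1 KO, 2.13% were called higher and 1.77% lower. In the first of these Id2 differed by -0.22, Smad1 by -0.16, Bmpr1a by -0.14, Id3 by -0.06 and Id1 by 0.20. In double KO minus Tut1 KO, Id2 differed by 0.53, Bmpr1a by 0.47, Smad1 by 0.32, Id3 by 0.10 and Id1 by -0.19. As deposited, every sign was opposite between the pair. The sex order was reversed between them too, and its part was not tested. In double KO minus Tut1 KO, the values of Id2, Bmpr1a and Smad1 are relative to the library in which each was lowest. With the correction for GC content and length, Bmpr1a differed by 0.01 and 0.10, no longer with opposite signs. All 20 differences of the 5 genes lay within the central 95% of the genes compared.

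**Figure D2:**
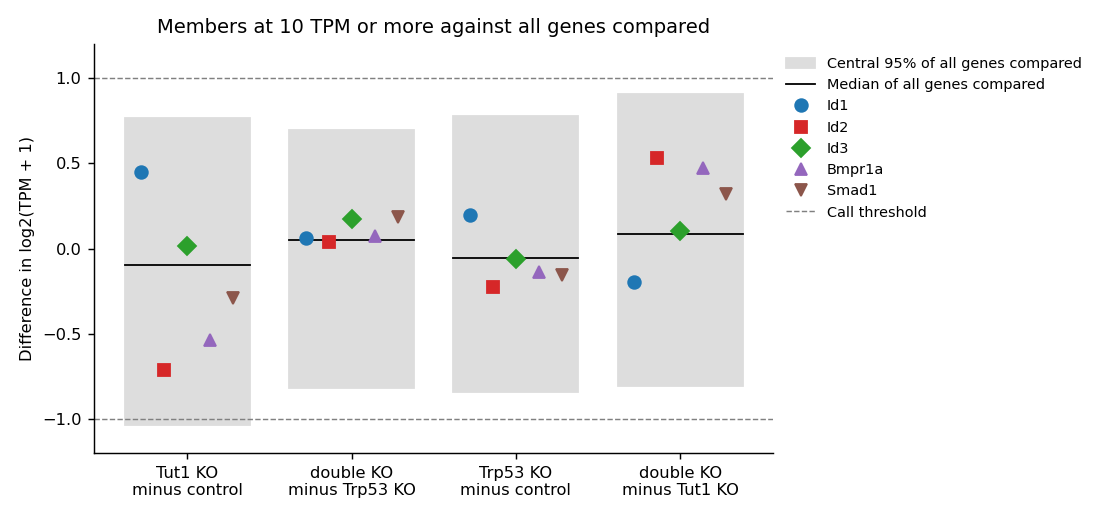
Points give the difference in log2(TPM + 1) of the 5 genes at 10 TPM or more in the 4 comparisons named on the x axis, each between 2 single libraries. Grey boxes span the central 95% of all genes compared, black lines their median, and dashed lines the threshold of 1. Every point lies inside its box, and the points spread most in Tut1 KO minus control, from -0.71 (Id2) to 0.45 (Id1).

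Of 87 pathway genes, the 10 included, 36 or 37 passed the TPM minimum in each comparison. The calls among them were both of E proteins, the partners that ID proteins sequester. Tcf4 was lower in Tut1 KO minus control, 1 of 36 against 2.61% of all genes, and Tcf12 was higher in double KO minus Trp53 KO, 1 of 36 against 1.41%. These counts are near the share over all genes and say nothing particular of the pathway. Tcf12 (ENSMUSG00000032228, chromosome 9, 71842688 to 72111871, minus strand) was at 34.3 TPM in control cells and at 30.8 TPM after Trp53 deletion alone, against 69.0 TPM in the library labelled Tut1 KO and 113 TPM in double KO cells. Both libraries with the Tut1 label were above both without it. Its differences were 0.99, just under the threshold, and 1.84 in the 2 Tut1 comparisons.

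Tcf4 (ENSMUSG00000053477), another E protein, moved the other way, from 49.7 TPM (control) and 46.8 TPM (Trp53 KO) without the Tut1 label to 14.7 TPM (library labelled Tut1 KO) and 23.4 TPM (double KO) with it. Its differences were -1.69 and, just inside the threshold, -0.97. The third E protein, Tcf3, stayed between 51.5 and 61.7 TPM in the 4 libraries. As a share of the summed E protein TPM, Tcf12 made up 23.6% (control) and 22.4% (Trp53 KO) without the Tut1 label, against 51.1% in the library labelled Tut1 KO and 57.1% in the double KO. Tcf4 made up 34.1% and 34.0% against 10.9% and 11.9%. Neither gene shares exons with another gene in the annotation. Of 9314 genes with at least 10 TPM in some library, 16 (0.17%), Tcf12 included, were higher by at least 0.99 in both Tut1 comparisons, and 31 (0.33%), Tcf4 included, were lower by at least 0.97 in both. In Trp53 KO minus control, Tcf12 differed by -0.15 and Tcf4 by -0.08, and in double KO minus Tut1 KO by 0.70 and 0.64. These are levels of whole genes, and isoforms were not analysed here.

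The summed TPM of Id1 to Id4 was 313 in control cells, 278 in the library labelled Tut1 KO, 293 after Trp53 deletion and 319 in double KO cells. That of Tcf3, Tcf4 and Tcf12 was 146, 135, 138 and 197. The Id sum was 2.15, 2.06 and 2.13 times the E protein sum in the first 3 libraries and 1.62 times in the double KO, where Tcf12 was highest.

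**Figure D3:**
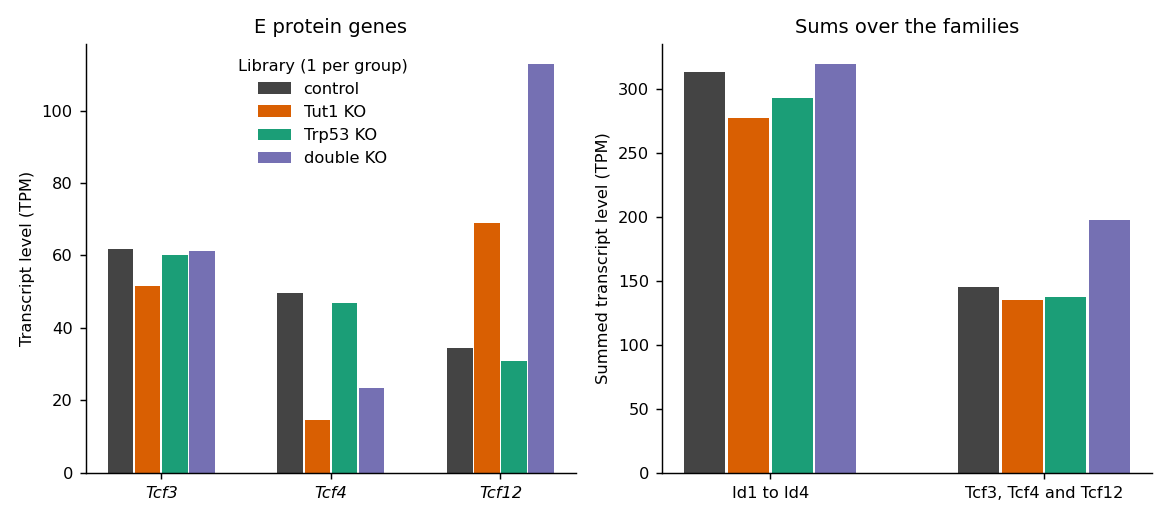
Bars give the TPM of the E protein genes Tcf3, Tcf4 and Tcf12 (left) and the summed TPM of the Id genes and of the E proteins (right) in the 4 libraries, 1 per group, with y axes starting at 0. Tcf4 is low and Tcf12 high in both libraries that carry the Tut1 label, while Tcf3 varies between 51.5 and 61.7 TPM.

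The other bHLH factors and targets on the list gave no further calls. The Notch target Hes1 stayed between 86.7 and 104 TPM. Hes5, another Notch target, was at 39.6 TPM in control cells and 36.8 TPM after Trp53 deletion alone, against 59.8 TPM in the library labelled Tut1 KO and 66.5 TPM in double KO cells, differences of 0.58 and 0.84. Neurog1 was listed at 0 in 3 libraries. By list, no ligand, receptor, SMAD carrier, inhibitor, antagonist or response gene was called in any of the 4 comparisons. The medians of the 6 receptors compared were -0.49 and 0.08 for the Tut1 label with and without Trp53, and -0.15 and 0.34 for the Trp53 label without and with the Tut1 label. In the same order, those of the 3 SMAD carriers were -0.29, 0.18, -0.06 and 0.44. The 6 inhibitors had -0.16, 0.07, -0.23 and 0.06, the 3 antagonists -0.60, 0.09, -0.28 and 0.41, and the 4 response genes -0.01, 0.12, -0.09 and 0.11. The 9 bHLH genes had -0.06, 0.03, -0.10 and 0.14, and the medians over all genes were -0.09, 0.05, -0.05 and 0.09. Bmp7 was the single ligand compared. Tob1, an antiproliferative gene that also restrains BMP SMADs, had 41.1 and 46.8 TPM in the libraries with Trp53 and 28.4 and 26.3 TPM in those without, differences of -0.52 and -0.81. Bmper, a BMP-binding protein, stayed under the minimum, at 8.43 TPM (control), 7.60 TPM (library labelled Tut1 KO), 3.31 TPM (Trp53 KO) and 4.48 TPM (double KO).

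Transcript composition moved with the differences, most in the comparisons that hold the library labelled Tut1 KO. Over the 36 pathway genes compared, the difference in Tut1 KO minus control had a Spearman's rho of 0.46 with the GC content of the longest transcript, against 0.43 over 8250 protein-coding genes. Without that library, rho over protein-coding genes was -0.22 in double KO minus Trp53 KO and 0.17 in the comparison of Trp53 KO with control. Over the pathway genes these were -0.02 and 0.17. With transcript length, rho in Tut1 KO minus control was -0.25 over the pathway genes and -0.36 over protein-coding genes. The correction below removes both, so its shifts cannot be assigned to GC content alone. The genes share their libraries, and these values are descriptions. The median in Tut1 KO minus control was -0.45 for the 11 pathway genes with GC content under 45%, 8 of them lower. It was -0.13 for the other 25, 17 of them lower. Over all protein-coding genes compared, the same split gave -0.31 and -0.04. Bmpr1a has a GC content of 41.3%, Id2 45.1%, Smad1 51.5%, Id1 54.7% and Id3 55.6%. After a fit of GC content and length was removed from each library, Bmpr1a differed by -0.15 in place of -0.54 and Bmpr2 by -0.06 in place of -0.55. Id2 differed by -0.60, Smad1 by -0.20, Id1 by 0.30 and Id3 by -0.13. Tcf12 then differed by 1.30 and Tcf4 by -1.25 with Trp53 intact, and by 1.73 and -1.13 without it, so that both were past the threshold in both comparisons. The median of the 6 receptors in Tut1 KO minus control became -0.05 in place of -0.49, and that of the 3 antagonists -0.30 in place of -0.60. Double KO minus Tut1 KO holds the library labelled Tut1 KO as the reference, so its dependence is not separate from that above. In it, rho was -0.65 over 37 pathway genes and -0.49 over 8185 protein-coding genes. There the correction gave 0.10 for Bmpr1a in place of 0.47, 0.40 for Id2 in place of 0.53 and 0.25 for Smad1 in place of 0.32. Id1 became -0.06 in place of -0.19, while Id3 grew to 0.23 from 0.10. The receptor median was 0.05 in place of 0.34, and the antagonist median was 0.07 in place of 0.41. Some small list medians took the other sign. In double KO minus Trp53 KO the receptors had -0.07 in place of 0.08 and the antagonists -0.04 in place of 0.09, and in Trp53 KO minus control the receptors had 0.02 in place of -0.15. What gave the libraries this dependence was not tested.

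**Figure D4:**
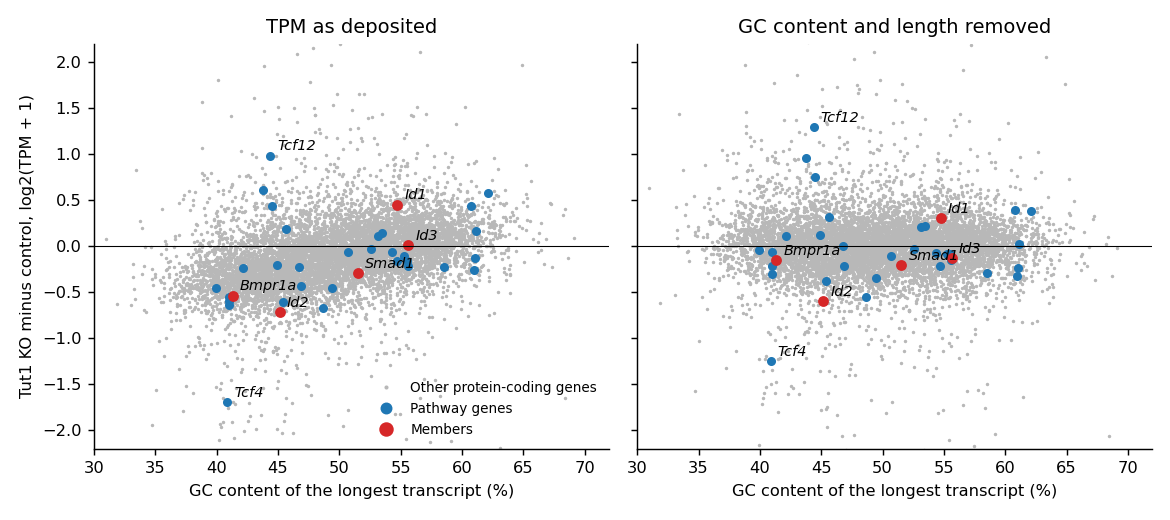
The x axes give the GC content of the longest annotated transcript and the y axes the difference in log2(TPM + 1) of the library labelled Tut1 KO minus the control, for TPM as deposited (left) and after removal of a fit on GC content and length (right). Grey points are protein-coding genes, blue points the pathway genes and red points the 5 genes of the 10 that were compared, and of 8250 genes 64 (left) and 63 (right) lie outside the drawn range. Bmpr1a moves from -0.54 to -0.15, Id2 from -0.71 to -0.60, and Tcf4 and Tcf12 stay far from 0 on opposite sides.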

How the data were processed

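Total RNA of cultured neural stem cells was sequenced in 4 libraries, 1 for each of the 4 groups. The authors deposited 1 table of TPM values per gene. The submitters' processing notes name Trimmomatic, HISAT2, StringTie and mm10, with no versions. A kit for stranded short reads stands in the labels and long-read sequencing in the series text, and the annotation and any pooling are not given in the sources used here. TPM keeps no read depth, so no interval for counting error was computed, and depth is unknown. TPM summed to 999874 to 999892 per library, with 8392 to 8747 genes at 10 TPM or more.

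Groups came from the sample titles. The genes and lists were chosen with earlier results of these data known. Named were the 10 genes, pathway genes called in some comparison, the highest and lowest of each list in the control, Tut1, Trp53 and, for Id1, Id2 and Id3, the 3 nearest profiles. Bmpr2, Bmpr1b, Acvr1, Acvr2a, Rgma, Tcf3, Smad5, Hes1, Hes5, Tob1, Bmper, Chrdl1, Twsg1, Olig2 and the marker and sex-linked genes named were picked after their values were seen. Coordinates, GC content, length and exon overlap came from GENCODE M21 (GRCm38, the same assembly as mm10), found for 87 of 87 pathway genes, and promoters from RefSeq. The alternatives were a pseudocount of 0.1 or 5, other TPM minimums, quantile normalization, medians set to 0, rescaling without 125 ribosomal protein and mitochondrially encoded genes, and a 1.5-fold threshold. The correction for GC content and length was added after the data were seen. It removed a quadratic fit on GC content and log2 length, made over protein-coding genes at 10 TPM or more, from the log2 values centred on each gene. Calculations ran in Python 3.11.15 (scipy 1.17.1, pandas 2.3.3, numpy 2.4.6), figures in matplotlib 3.10.9, and scripts were tested on simulated data.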

Additional observations from a re-analysis of the deposited data

How the results depend on the processing

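With 1 library per group no result has a replicate check, and no paired or leave-one-out analysis could be made. The count of 0 called genes among the 10 held in all 4 comparisons and both directions under every alternative run, except that a 1.5-fold threshold called 1 gene lower in Tut1 KO minus control (Id2). The share of all genes called at that threshold is not given here, so that call cannot be set against it. Of all genes compared there, 4.98% had a lower difference than Id2. Of 240 differences of the 10 genes recomputed under a changed scale, 10 took the other sign, all of them under 0.15 in size as reported. A pseudocount of 0.1 brought 4 past 1 in size, of Bmp4 and Smad6, both under the minimum of 10 TPM in every library. For Tcf12 in Tut1 KO minus control, 0.99 as reported became 1.08 after quantile normalization or when medians were set to 0, 1 at the pseudocount of 0.1, 1.01 without mitochondrially encoded and ribosomal protein genes, 1.30 with the GC and length correction, and 0.91 at the pseudocount of 5. For Tcf4 in double KO minus Trp53 KO, -0.97 became -1.02 with medians set to 0, -1.13 with that correction, -0.99 after quantile normalization and -0.87 at the pseudocount of 5. In Trp53 KO minus control, that correction turned Tcf4 from -0.08 to 0.09. The correction, for the gene lists too, and all alternatives for Tcf4 and Tcf12 were chosen after seeing the data.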

Other observations

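The TGF-beta and activin branch, which signals through SMAD2 and SMAD3 rather than SMAD1, SMAD5 and SMAD9, was also measured. Of its 15 genes, 6 reached 10 TPM in some library and the highest value was 14.7 TPM, while 4 had less than 1 TPM in every library. Tgfbr1, a type I receptor, was the highest in the control at 13.5 TPM, against 8.58 TPM (library labelled Tut1 KO), 10.6 TPM (Trp53 KO) and 13.3 TPM (double KO), and Acvr1c was the lowest at 0.01 TPM. No gene of the list was called in any comparison. The medians of the genes compared were -0.21 and 0.21 for the Tut1 label with and without Trp53, and -0.13 and 0.35 for the Trp53 label without and with the Tut1 label. With the GC and length correction these became 0.12, 0.13, -0.04 and 0.10.

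The genes with the profiles nearest to the Id genes were taken by Euclidean distance of log2(TPM + 1), centred on each gene's mean over the 4 libraries, among 7180 genes with at least 10 TPM in every library. Nearest to Id1 were Sin3b (distance 0.03), Mpc2 (0.04) and Tmem176a (0.05). Nearest to Id2 were Dnajc3 (0.02), Cdh2 (0.03) and Pgap1 (0.03), and Cdh2, at 73.3 TPM in control cells, was at 44.6 TPM in the library labelled Tut1 KO. Nearest to Id3 were Ppp1r8 (0.01), Gpr180 (0.02) and Ppie (0.02). Within a distance of 0.1 lay 39 genes for Id1, 40 for Id2 and 376 for Id3, so that with 4 points per gene many profiles were alike.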
